A study of Mus musculus with 8 samples.

Results

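Fatty acid desaturases and elongases are the enzymes that set the number of double bonds and the length of the fatty acid chains a cell makes, and their transcripts were followed here in brown adipose tissue with and without Lsd1. The 10 genes described are the front-end desaturases Fads1, Fads2 and Fads3, the stearoyl-CoA desaturase Scd2, and the elongases Elovl1, Elovl3, Elovl4, Elovl5, Elovl6 and Elovl7. They were taken by gene symbol from the 23372 named genes of the count table, and all 10 passed the filter on low counts that left 14178 genes for testing. The tissue came from C57BL/6 N mice aged 10 weeks. Control mice carried floxed alleles of Lsd1 (gene symbol Kdm1a), a histone demethylase. Knockout mice carried the same floxed alleles plus a Cre transgene, Ucp1-Cre, active in brown fat cells, so other cells of the tissue keep the gene. The controls are described only as floxed, and neither the labels nor the design text say whether they carried Cre or which sex the mice were. If they carried none, the effect of Cre and that of the deletion cannot be told apart. There were 4 control libraries (511, 514, 517 and 518) and 4 knockout libraries (512, 513, 515 and 516), and values below are given in this order. The labels do not describe litters, housing or batches, so a p-value reflects the spread of these samples alone, which may be partly technical.

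Elongation takes place at the endoplasmic reticulum, where an Elovl enzyme condenses an acyl-CoA with malonyl-CoA and a ketoreductase, a dehydratase and a reductase complete the cycle. Elovl1, Elovl3, Elovl6 and Elovl7 work mainly on saturated and monounsaturated chains, Elovl5 on polyunsaturated chains, and Elovl4 makes very long chains in retina, skin and brain. Scd enzymes place the double bond that turns a saturated chain into a monounsaturated one, while Fads2 and Fads1 add double bonds near the carboxyl end of dietary polyunsaturated chains, both with electrons from cytochrome b5. In brown fat Elovl3 is known as a gene strongly induced by cold, and Elovl6 and the Scd enzymes as parts of de novo lipogenesis.

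Summed counts over all rows lay between 33011022 and 38756920 per library. Levels are given as CPM, depth-scaled counts with the TMM factors of edgeR, and changes as log2 fold changes, knockout relative to control, with their approximate error, written SE. Adjusted p-values are from edgeR's quasi-likelihood test with Benjamini-Hochberg adjustment over all tested genes, and a gene is called higher or lower where that value is under 0.05. Kdm1a lay at 33.3 to 36.9 CPM in controls and 12.2 to 13.96 CPM in knockouts. Summed over the list for each cell type, markers of brown adipocytes gave 7904 to 10928 CPM in controls and 4876 to 5447 in knockouts, with 5 of 8 called lower and 0 higher. Ucp1 had the largest part in this sum, at a mean of 4481 CPM in controls and 1377 CPM in knockouts, while Cidea, Ppargc1a and Dio2 were not called. Markers of all fat cells gave 21727 to 27008 and 15814 to 17958 CPM, with 5 of 8 lower and 0 higher, and Fabp4 had the highest level among them (10003 and 6024 CPM). In bulk tissue fewer fat cells and less of an RNA per fat cell cannot be told apart. Skeletal muscle markers summed to 4203, 291, 3578 and 5828 CPM in controls and to 15222, 10207, 8851 and 7080 CPM in knockouts, with 2 of 15 called higher and 0 lower, so control 514 held by far the least muscle RNA and every knockout held more than any control. Markers of Schwann cells and nerve summed to 306 to 403 CPM and 431 to 504 CPM, with 1 of 10 called, and those of macrophages to 112 to 211 and 200 to 304 CPM, with 4 of 10 called higher. Of the markers of other cell types, 2 of 10 for fibroblasts and preadipocytes were higher, 1 of 8 for smooth muscle and pericytes was lower, and 0 of 8 for endothelium, 0 of 8 for lymphocytes and 0 of 5 for erythroid cells were called. The part of these other cell types in the results was not tested beyond the muscle score used as a covariate. That score, the mean log2 CPM of the muscle markers, ran from 3.81 (control 514) to 8.07 in controls and from 8.38 to 9.51 in knockouts. The groups do not overlap on it, so no fit with this score can tell muscle content and genotype apart, whether a call holds or ends.

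Of the 10 genes, 4 were higher in knockout tissue (Fads1, Fads2, Elovl1 and Elovl4), 2 were lower (Elovl3 and Elovl6) and 4 were not called (Fads3, Scd2, Elovl5 and Elovl7). Among all 14178 tested genes 15.4% were called higher, 18.9% lower and 34.4% in either direction. For 5 of the 10 genes no control value fell within the knockout range or the reverse, against 35.5% of all tested genes. The median log2 fold change of the 10 was 0.69, beside -0.01 over all tested genes. The changes ran in both directions inside the family, with Fads1 and Fads2 up and the elongase of highest level, Elovl6, down.

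**Figure D1:**
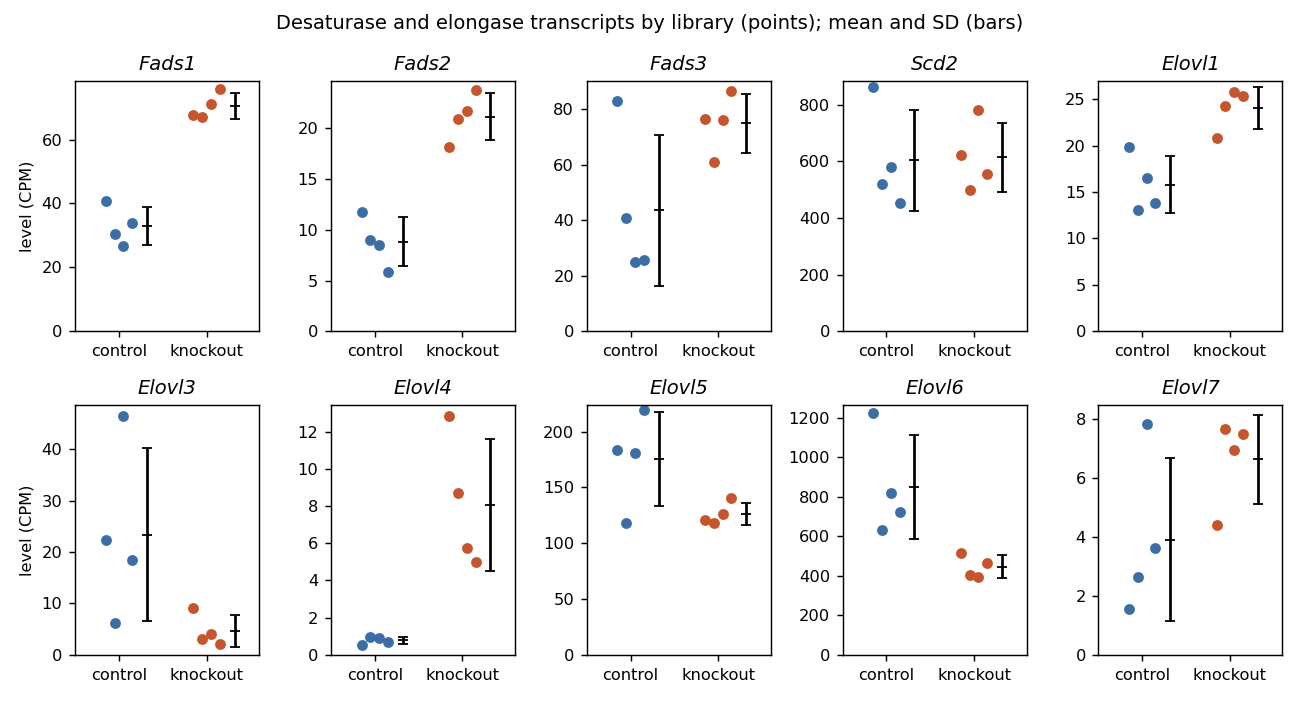
Level of each gene in each library, in CPM on a linear axis starting at 0, for controls (blue, left) and knockouts (orange, right), with the mean and SD of 4 libraries as bars. Fads1, Fads2, Elovl1 and Elovl4 lie higher in all knockouts, Elovl6 lies lower in all of them, and the other genes overlap between the groups.

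Fads1, which places the last front-end double bond on the way to arachidonic acid, lies on chromosome 19 (10182888 to 10196872, plus strand, mm10). Control libraries held 40.9, 30.4, 26.6 and 33.9 CPM and knockout libraries 67.6, 67.1, 71.2 and 75.9 CPM. The lowest knockout stood well above the highest control, and the knockouts lay close together. The mean went from 33.0 ± 6.04 to 70.5 ± 4.04 CPM (SD, n = 4 each), 2.14-fold higher (edgeR adjusted p = 0.000476, log2 SE 0.122).

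Fads2, which carries out the first and rate-limiting desaturation of the same chain, lies at 10064164 to 10101503 of chromosome 19 on the minus strand, so it points away from Fads1 with a gap of 81.4 kb between the gene bodies. It was read at 11.8, 9.02, 8.54 and 5.88 CPM in controls and at 18.2, 20.9, 21.7 and 23.8 CPM in knockouts. Again no knockout reached down to a control. The mean rose from 8.80 ± 2.41 to 21.1 ± 2.32 CPM (SD, n = 4 each), 2.40-fold higher (edgeR adjusted p = 0.00153, log2 SE 0.190). Both calls held under each of 17 alternative fits, with log2 fold changes between 1.004 and 1.30 for Fads1 and between 1.13 and 1.47 for Fads2.

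Fads3, a paralog that acts on sphingoid bases, starts the same cluster (10041548 to 10059671, plus strand) and ends 4493 bases from Fads2. Its controls held 82.9, 40.8, 24.7 and 25.7 CPM and its knockouts 76.5, 60.8, 75.9 and 86.6 CPM. Control 511 lay inside the range of the knockouts and the other 3 controls below it. The log2 fold change was 0.78 (edgeR adjusted p = 0.115, log2 SE 0.354) and was not called. Without control 511 it was 1.30 (edgeR adjusted p = 0.00248), and with library sizes alone over all libraries it was 0.996 (0.0452), so the call depended on this library and on the scaling. Without control 517, whose level was the lowest, it was 0.59 (edgeR adjusted p = 0.224).

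The genes next to the cluster did not all follow it. Fen1, a flap endonuclease gene 2267 bases past Fads1, stood at 4.596 CPM in controls and 4.84 CPM in knockouts (log2 fold change 0.08, edgeR adjusted p = 0.713). Rab3il1, a Rab exchange factor gene on the other side of Fads3, rose by 0.45 in log2 units (edgeR adjusted p = 0.0190). Inside each library the ratio of Fads2 to Fads1 per transcript length was 0.609 in controls and 0.693 in knockouts (geometric means), a log2 difference of 0.19 (exact permutation p = 0.543, two-sided, n = 4 each). Of the summed level per length of the 3 genes, Fads1 made up 26.2% to 45.3% in controls and 34.1% to 37.3% in knockouts, and Fads2 17.5% to 27.2% and 22.1% to 26.9%. The make-up of the trio therefore overlapped between the groups, and it varied less among knockouts.

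The 250 bases before the RefSeq start of Fads2 (GRCm38.p6, chr19:10101504-10101753, minus strand) are shown because Fads2 was called in every fit, beside those of Elovl4 (chr9:83806306-83806555, minus strand), the gene with the largest rise, and Elovl6 (chr3:129532136-129532385, plus strand), the lowered elongase with the highest level. Letters are in lower case, 5′ to 3′ on the strand of the gene, and capitals mark the matches to the motifs listed after them.
Fads2: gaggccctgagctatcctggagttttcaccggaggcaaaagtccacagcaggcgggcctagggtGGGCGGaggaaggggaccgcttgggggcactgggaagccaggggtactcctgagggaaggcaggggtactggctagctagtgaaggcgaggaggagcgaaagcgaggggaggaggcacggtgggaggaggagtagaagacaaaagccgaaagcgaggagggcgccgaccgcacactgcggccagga
Elovl4: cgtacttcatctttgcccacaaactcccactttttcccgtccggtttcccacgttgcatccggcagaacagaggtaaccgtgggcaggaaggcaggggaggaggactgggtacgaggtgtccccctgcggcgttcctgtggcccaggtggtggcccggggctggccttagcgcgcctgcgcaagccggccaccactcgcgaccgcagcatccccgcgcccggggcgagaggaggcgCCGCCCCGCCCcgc
Elovl6: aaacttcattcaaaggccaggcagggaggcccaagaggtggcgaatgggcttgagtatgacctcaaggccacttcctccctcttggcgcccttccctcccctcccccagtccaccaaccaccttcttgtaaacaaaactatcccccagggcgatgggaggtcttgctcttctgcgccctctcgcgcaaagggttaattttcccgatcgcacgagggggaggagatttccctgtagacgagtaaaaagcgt
Both strands were searched for GGGCGG (GC box), CCAAT (NF-Y), CACGTG (E-box), TATAAA, TCACNCCAC (sterol element), TTCAGCACC (left part of the RE1 element bound by REST), and, by name, the right part of RE1, the NRF1 palindrome and the direct repeats of PPAR and LXR. Fads2 held a GC box from 186 to 181 bases before the start, Elovl4 held a pair that share 1 base between 14 and 4 bases before it, and Elovl6 held none of the motifs. Over the 7 of 10 genes with an entry (Fads2, Fads3, Elovl1, Elovl4, Elovl5, Elovl6 and Elovl7), 5 held a GC box, 3 a CCAAT and 1 an E-box, which are found in 32.7%, 33.8% and 6.02% of all 32851 windows of this length. These matches describe letters only.

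Scd2, the stearoyl-CoA desaturase of chromosome 19 (44293676 to 44306862, plus strand) that is prominent in brain and in young fat cells, differed little. Controls held 861, 520, 578 and 453 CPM and knockouts 620, 500, 782 and 555 CPM. The groups overlapped almost fully, with the highest value in control 511. The log2 fold change was 0.03 (edgeR adjusted p = 0.934, log2 SE 0.208), and its sign turned in 4 of 17 alternative fits. Scd1, the main isozyme of fat and liver, lies 87.6 kb away with Scd4 in between. Of the counts left after keeping the top row of each symbol, Scd1 took 1.30% to 8.42% in control libraries and 4.63% to 5.47% in knockout libraries. The ratio of Scd2 to Scd1 per length was 0.0133 in controls and 0.0112 in knockouts (exact permutation p = 0.657, two-sided, n = 4 each). It was -7.24 and -5.08 on the log2 scale in controls 514 and 518, so the controls alone spanned more than the difference between the groups. The ratio of Fads2 to Scd2, in contrast, did not overlap between the groups and was 2.38-fold higher in knockouts (exact permutation p = 0.0286, two-sided, n = 4 each, the smallest this design allows, and 0.0762 after adjustment over 8 ratios).

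Elovl6, which lengthens palmitate to stearate, fell. It lies on chromosome 3 (129532386 to 129638493, plus strand). Controls held 1225, 633, 820 and 723 CPM and knockouts 518, 404, 393 and 467 CPM. All knockouts stood below all controls, and control 511 stood highest, as it did for Fads1, Fads2, Fads3, Scd2 and Elovl1. The mean went from 850 ± 261 to 445 ± 58.5 CPM (SD, n = 4 each), 1.91-fold lower (edgeR adjusted p = 0.00701, log2 SE 0.197). Without control 511 the log2 fold change was -0.70 and the gene was still called (edgeR adjusted p = 0.00495).

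Elovl3, the cold-induced elongase of brown fat, had the largest fall of the 10 genes and the 10th largest of all 14178. It lies on chromosome 19 (46131899 to 46135694, plus strand). Controls held 22.4, 6.23, 46.4 and 18.4 CPM and knockouts 9.06, 3.08, 4.06 and 2.09 CPM. Control 514 lay below knockout 512, so the groups overlapped, and the controls differed 7.38-fold between the lowest and the highest on the log2 CPM scale with its prior count. The mean went from 23.4 ± 16.8 to 4.58 ± 3.10 CPM (SD, n = 4 each), 5.11-fold lower (log2 -2.35, edgeR adjusted p = 0.0176, SE 0.614). The size depended on single libraries, at -1.78 without control 517 (edgeR adjusted p = 0.0420) and -2.92 without knockout 512 (0.0121), and the call ended without knockout 513 (-2.20, edgeR adjusted p = 0.0536). With the muscle score, the mean log2 CPM of the muscle markers, as a covariate it was -3.57 (edgeR adjusted p = 0.00582).

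Elovl4 rose the most, from a low level. It lies on chromosome 9 (83778692 to 83806305, minus strand). The control libraries held 14, 23.5, 21 and 19 counts and the knockout libraries 320.5, 232, 146.5 and 134.5 counts. In CPM these were 0.546, 0.958, 0.925 and 0.716 against 12.8, 8.72, 5.76 and 5.01, so the knockouts were all far above the controls yet differed 2.54-fold among themselves on the log2 CPM scale. The mean went from 0.786 ± 0.193 to 8.08 ± 3.55 CPM (SD, n = 4 each), 10.3-fold higher (edgeR adjusted p = 0.00036, log2 SE 0.348). It was the 28th highest log2 fold change of the 14178. The order of the 4 knockouts was that of their muscle marker sums, while the control with the least muscle RNA had the highest Elovl4 of the controls. Adjusted for the muscle score, the log2 fold change was 3.30 (edgeR adjusted p = 0.00475). The score was higher in every knockout than in any control, so muscle content and genotype cannot be told apart by this fit. Its neighbours Sh3bgrl2 (log2 fold change 0.01) and Bckdhb (-0.37), a subunit of branched-chain ketoacid dehydrogenase, were not called (edgeR adjusted p = 0.955 and 0.0734).

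Elovl1, a broadly expressed elongase of very long saturated chains, rose modestly. It lies on chromosome 4 (118428093 to 118432916, plus strand). Its controls held 19.9, 13.01, 16.5 and 13.8 CPM and its knockouts 20.8, 24.3, 25.7 and 25.3 CPM. Control 511 came close to knockout 512, but the groups did not overlap. The mean went from 15.8 to 24.0 CPM, 1.52-fold higher (edgeR adjusted p = 0.0108, log2 SE 0.141). Adjusted for the muscle score, the call ended (log2 fold change 0.48, edgeR adjusted p = 0.0994). Counting used no strand, and 2.93% of its exon bases lie opposite exons of Cdc20, a cell cycle gene at under 1 CPM on average in both groups.

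Elovl5, the elongase of polyunsaturated chains that works between Fads2 and Fads1, lay just outside the threshold. It lies on chromosome 9 (77917365 to 77984519, plus strand). Controls held 184, 118, 181 and 219 CPM and knockouts 121, 118, 127 and 141 CPM. Control 514 was as low as the knockouts, and the other 3 controls were above all of them. The log2 fold change was -0.47 (edgeR adjusted p = 0.0501, log2 SE 0.164), and the authors' deposited table gives -0.49 with an FDR of 0.0290, in a table where 17.4% of 30521 rows have an FDR under 0.05. Without control 514 it was -0.63 (edgeR adjusted p = 0.00257), and -0.81 once the muscle score was a covariate (0.00456). Elovl5 was also called by DESeq2 (-0.46, adjusted p = 0.0252) and with no filter on low counts (-0.48, edgeR adjusted p = 0.0472). With library sizes alone it was -0.28 (edgeR adjusted p = 0.216).

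Elovl7 was scarce and was not called. It lies on chromosome 13 (108214404 to 108287107, plus strand). Controls held 1.56, 2.63, 7.84 and 3.62 CPM and knockouts 4.41, 7.67, 6.94 and 7.48 CPM. Control 517 lay above all knockouts and the other 3 controls below them. The log2 fold change was 0.77 (edgeR adjusted p = 0.191, log2 SE 0.427), and without control 517 it was 1.34 (edgeR adjusted p = 0.0154). By limma-voom with sample weights over all libraries it was 1.11 (adjusted p = 0.0440). The controls differed more among themselves than the knockouts did for 9 of the 10 genes, by the SD of log2 CPM, the exception being Elovl4.

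**Figure D2:**
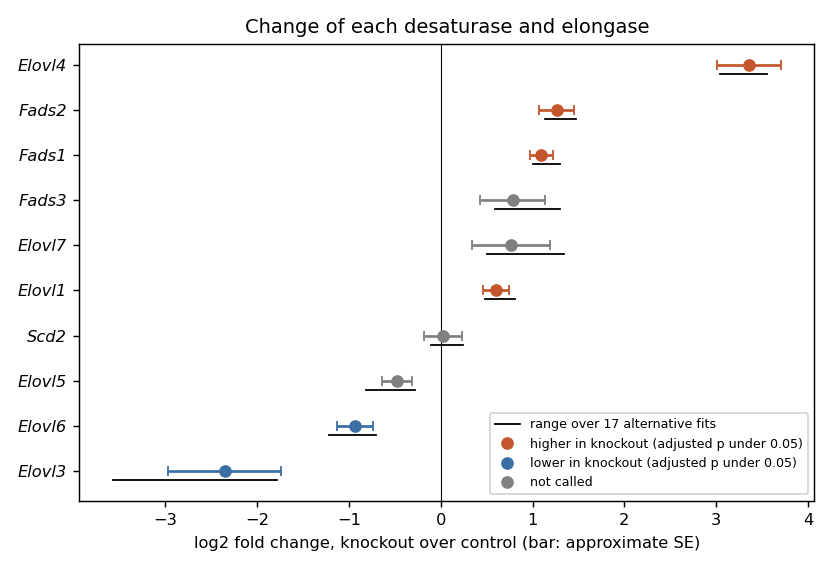
Log2 fold change of each gene, knockout over control (horizontal axis), with its approximate SE (coloured bar) and, as a thin black line, the range over 17 alternative fits. Orange marks genes called higher, blue genes called lower and grey genes not called. The lines of the 3 Fads genes, Elovl1, Elovl4 and Elovl7 stay above 0 and those of Elovl3, Elovl5 and Elovl6 below it, while that of Scd2 crosses 0.

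Per length of transcript, which allows levels of different genes to be compared, the order in controls was led by Elovl6 at 143 CPM per kilobase, Scd2 at 111 and Elovl5 at 63.5. Fads3, Elovl3, Fads1, Elovl1 and Fads2 followed at 13.4, 12.5, 9.60, 8.99 and 5.94, and Elovl7 and Elovl4 were at 0.722 and 0.259. The ranges of Elovl6 and Scd2 overlapped in controls, as did those of each neighbouring pair from Fads3 to Fads2 and those of Elovl7 and Elovl4, so these parts of the order are not resolved. In knockouts Scd2 (113) stood above Elovl6 (75.0) and Elovl5 (45.7) with no overlap between these 3, and Elovl4 (2.66) stood beside Elovl3 (2.45), which overlapped. The length of Fads2 in the count table is 1483 bases, where the GENCODE model of the same transcript has 3150 exon bases, so its level per length depends on the model used.

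**Figure D3:**
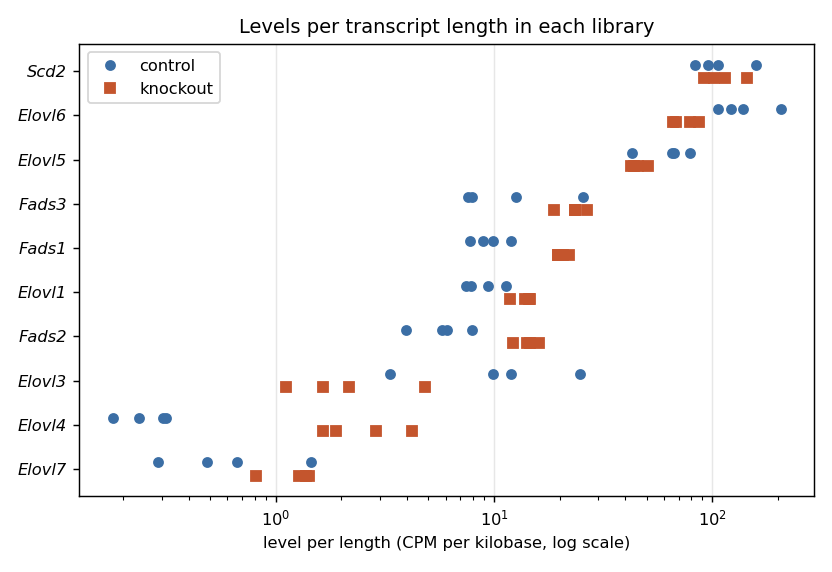
Level per transcript length in each library, in CPM per kilobase on a log axis, for controls (blue circles) and knockouts (orange squares), with genes ordered by their mean over all 8 libraries. Elovl4 has the lowest mean in controls, where it overlaps Elovl7, and lies in the range of Elovl3 in knockouts, and Elovl6 falls below Scd2.

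In the elongase pool 2 of 6 shares did not overlap between the groups, those of Elovl1 and Elovl4. Both genes also did not overlap in CPM, as was so for 35.5% of all tested genes. Of the summed level per length of the 6 elongases in a library, Elovl1 made up 3.58% to 4.61% in controls and 7.76% to 11.1% in knockouts, and Elovl4 0.0605% to 0.196% and 1.11% to 2.77%, with no overlap for either. Elovl6 made up 55.4% to 69.6% in controls and 50.1% to 57.2% in knockouts, which overlapped, and so did Elovl5 (22.4% to 36.1% and 28.6% to 34.7%), Elovl3 (2.07% to 10.4% and 0.756% to 3.18%) and Elovl7 (0.0970% to 0.604% and 0.533% to 1.09%). Shares of a pool are tied to each other, so a fall of Elovl6 raises the others.

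Ratios inside a library do not depend on the scaling between libraries, and 8 were compared by exact permutation tests, two-sided, with 4 libraries a group. The 3 whose groups did not overlap were Fads2 over Scd2, Fads2 over Elovl5 (3.34-fold higher in knockouts) and Elovl3 over Elovl1 (7.27-fold lower in knockouts), each at the smallest p the exact permutation test allows, 0.0286, or 0.0762 adjusted over the 8. None passed 0.05 after adjustment. Elovl3 over Elovl6 differed by -1.35 on the log2 scale and Elovl6 over Elovl5 by -0.45 (exact permutation p = 0.114 for each, 0.183 adjusted). Fads2 over Fads3 differed by 0.34 (exact permutation p = 0.286, 0.381 adjusted). The log2 values of Fads2 over Elovl5, a ratio of transcript levels, were -3.06, -2.81, -3.51 and -4.31 in controls and -1.83, -1.59, -1.64 and -1.66 in knockouts.

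**Figure D4:**
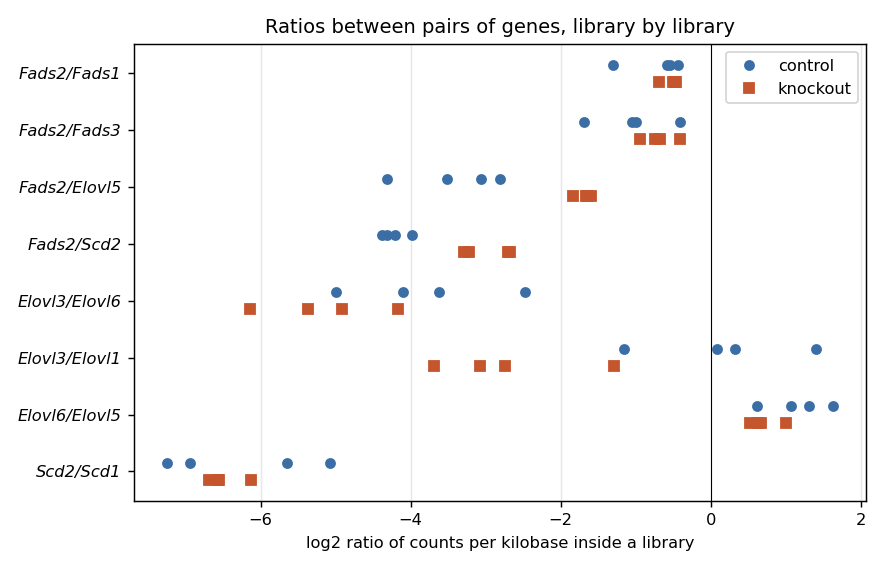
Log2 ratio of counts per kilobase between pairs of genes inside each library (horizontal axis), for controls (blue circles) and knockouts (orange squares). Knockouts and controls are apart for Fads2/Elovl5, Fads2/Scd2 and Elovl3/Elovl1 and overlap for the other 5 pairs.

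Among the genes that surround these steps more were lower than higher, and 29 were not called. Of 64 tested genes in 8 lists that leave out the 10 genes, 8 were higher and 27 lower, with a median log2 fold change of -0.24, beside 15.4% higher and 18.9% lower among all genes. With library sizes alone these counts were 14 and 17. Among the other desaturases and elongases 1 of 6 tested was called. Fads6, a desaturase-like gene of little known function, rose from 0.490 ± 0.127 to 3.36 ± 0.518 CPM (SD, n = 4 each, log2 fold change 2.76). Control 514 held 0.319 CPM of Fads6, so the controls alone would not have passed the filter on low counts. The gene was tested because of its level in knockouts. Scd3 (-0.53), Scd4 (-0.43) and Degs2 (0.23) were not called, and Elovl2 was too low to test.

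In the rest of the elongation cycle 2 of 6 tested genes were lower and 0 higher (median -0.18). Hsd17b12, the ketoreductase of the cycle, fell from 428 ± 84.0 to 208 ± 26.2 CPM (SD, n = 4 each, log2 fold change -1.04, edgeR adjusted p = 0.00133), and Hacd2, a dehydratase listed as Ptplb, fell by 0.81 on the log2 scale. The dehydratases Hacd4 (listed as Ptplad2, log2 fold change 0.74) and Hacd3 (listed as Ptplad1, -0.19) were not called, but both were without control 517 (1.02 and -0.27, edgeR adjusted p = 0.00911 and 0.0411). Hacd4 was called in 6 of 17 alternative fits in all, among them upper quartile factors, library sizes alone, DESeq2 and limma-voom (adjusted p = 0.0374, 0.0226, 0.0408 and 0.0323). Among the cytochrome b5 proteins and their reductases, 3 of 6 were lower and 0 higher (median -0.31). These were Cyb5b, which fell by 0.74, Cyb5a, which fell by 0.46, and Cyb5r4, which fell by 0.37. Cyb5r1 had a log2 fold change of 0.21 and no call, but was called in 5 of 17 alternative fits: with upper quartile factors (edgeR adjusted p = 0.0141), library sizes alone (0.00397), DESeq2 (0.0320) and limma-voom (0.0488), and without control 517 (0.0344). The call of Cyb5a ended with library sizes alone and with the muscle score (edgeR adjusted p = 0.114 and 0.0777). The call of Cyb5r4 ended with library sizes alone and upper quartile factors (edgeR adjusted p = 0.264 and 0.0756), and also without control 517, control 518, knockout 515 or knockout 516 (0.0552, 0.0593, 0.0646 and 0.0653).

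In the supply of malonyl-CoA and palmitate 6 of 9 genes were lower and 0 higher (median -0.83). Acly, which makes cytosolic acetyl-CoA, fell from 5432 ± 1182 to 2394 ± 261 CPM (SD, n = 4 each), Thrsp fell by 0.96 on the log2 scale, Acacb, a carboxylase that makes malonyl-CoA, fell by 0.64 and Mlycd, which breaks it down, fell by 0.56. Of 12 transcriptional regulators of lipid synthesis 7 were lower and 0 higher (median -0.26). Mlx and Mlxipl, partners in the carbohydrate response factor, fell by 0.85 and 0.65, the liver X receptor gene Nr1h3 fell by 0.34, and Scap, the escort protein of the sterol response, fell by 0.22. With library sizes alone the calls of Mlxipl, Nr1h3 and Scap ended (edgeR adjusted p = 0.0709, 0.279 and 0.785), those of Nr1h3 and Scap also with upper quartile factors (0.0646 and 0.151), and that of Scap with the muscle score (0.148). Leaving out 1 library also ended the call of Nr1h3 (knockout 513 or 516, edgeR adjusted p = 0.0509 and 0.0531) and of Scap (control 514, knockout 515 or knockout 516, 0.0541, 0.0625 and 0.0644).

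The users of the products moved in both directions. In acyl-CoA activation and phospholipid incorporation 4 of 13 genes were higher and 4 lower (median 0.10). Acsl5, an acyl-CoA synthetase, fell by 1.62, Acsl1, the main synthetase of fat cells, fell by 0.62 and Agpat3, an acyltransferase of phosphatidic acid synthesis, fell by 0.70, while Mboat2, a lysophospholipid acyltransferase, rose by 0.82. Of 7 genes of peroxisomal chain shortening, the last part of docosahexaenoic acid synthesis, 5 were lower and 0 higher (median -0.61), among them Abcd3, a transporter, which fell by 0.65, Hsd17b4, which fell by 0.63, and Acaa1a, a thiolase, which fell by 0.32 but was not called with library sizes alone or with the muscle score (edgeR adjusted p = 0.215 and 0.0810). Of 5 tested ceramide synthases, which use the very long chains, 3 were higher and 0 lower (median 0.61). Cers4 went from 13.04 ± 0.868 to 22.9 ± 2.91 CPM (SD, n = 4 each, log2 fold change 0.81, edgeR adjusted p = 0.000987), Cers5 rose by 0.51 and Cers1 by 0.95. Cers2, the most abundant of them, had a log2 fold change of -0.16 and no call. The calls of Cers1 and Mboat2 ended with the muscle score as a covariate (log2 fold change 0.40 and 0.76, edgeR adjusted p = 0.250 and 0.0796), and that of Cers1 also without knockout 512 (0.0503).

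**Figure D5:**
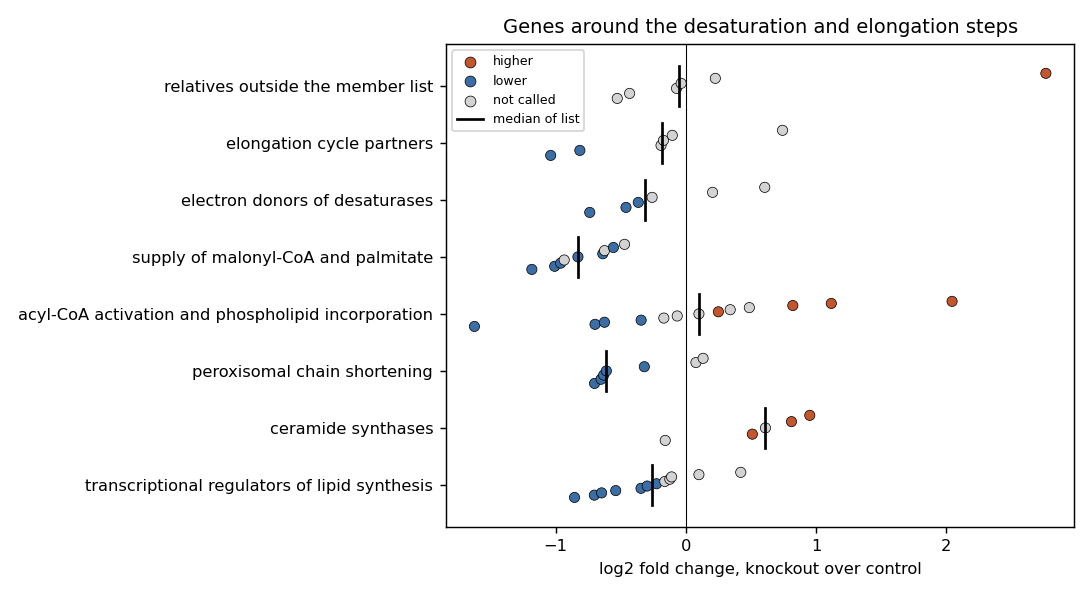
Log2 fold change, knockout over control, of the tested genes of 8 lists around the desaturation and elongation steps, coloured by call (orange higher, blue lower, grey not called), with the median of each list as a black line. The lists for malonyl-CoA supply and peroxisomal chain shortening lie furthest to the left, and ceramide synthases furthest to the right.

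Of the 16 nearest tested neighbours other than the 10 genes, 2 were higher, 3 lower and 11 not called, beside 15.4% higher and 18.9% lower among all tested genes. Those not called included the desaturase genes Scd3 and Scd4, which flank Scd2. Others were Gclc beside Elovl5 (-0.01), Enpep beside Elovl6 (0.04) and Ercc8 (-0.24) and Pde4d (-0.20) beside Elovl7. Of those called and not yet described, Egf, beside Elovl6, rose by 0.96 on the log2 scale, and Med8, Nolc1 and Fbxo9, beside Elovl1, Elovl3 and Elovl5, fell by 0.46, 0.61 and 0.41. Pitx3, which shares 10 exon bases with Elovl3 on the opposite strand, had a log2 fold change of 0.71 and no call, with means under 1 CPM. By the correlation of log2 CPM over the 8 libraries, given as a description since the libraries fall into groups, the genes most like Scd2 were Thnsl2 (0.964), B3galt2 (0.943) and Serpina1b (0.917), none of them called. Among those most like Elovl6 were Atf5 (0.982) and Psmc4 (0.977), both called lower.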

How the data were processed

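RNA was isolated with Trizol and read by Illumina sequencing, per the labels' protocols. The submitters' processing notes name mm10, TopHat2 (version 2), HOMER and edgeR. The authors' estimated counts were made with HOMER's analyzeRepeats.pl over exons of RefSeq models on both strands without adjustment, per the file headers. Being multiples of 0.5 (36.9% not whole), they were rounded to whole numbers. The other deposited table holds, per the file headers, the authors' counts scaled to equal totals (a signal, not tested here), fold (a ratio), p-value and FDR, and log2 fold change and log2 CPM.

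The 829 of 30521 rows without a symbol (0.0608% to 0.0824% of counts) were left out, and the row with the highest total stood for each of 23372 symbols. Genes passing filterByExpr with a minimum count of 10 (14178) went into edgeR 4.0.16 (R 4.3.3) with TMM factors, quasi-likelihood, knockout against control, two-sided. SE is the log2 fold change over the square root of F. Ratios used a pseudocount of 0.5. Replicates differed beyond sampling noise (chi-square per degree of freedom at least 13.1). Alternatives were other scalings, no filter, DESeq2 1.42.0, limma-voom 3.58.1 with sample weights, summed rows, rounding down, a muscle score covariate and leaving out each library. The edgeR fit was checked on simulated counts, and the permutation test on made-up values with a known answer. Promoter windows are from RefSeq (GRCm38.p6) and exon overlaps from GENCODE M21.

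The family and the lists were chosen with earlier results of these data known. Named were the 10 genes, Kdm1a, up to 4 genes of each list with the smallest p, the nearest tested neighbours and the 3 genes most correlated with the desaturase and the elongase of highest level. Some genes that this rule names are not reported here. Scd1 was named for its ratio to Scd2. All list entries were matched, 5 of them through older symbols.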

Additional observations from a re-analysis of the deposited data

How the results depend on the processing

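The calls of Fads1, Fads2, Elovl4 and Elovl6 held in all 17 alternative fits, that of Elovl1 in 16 (the exception being the muscle score) and that of Elovl3 in 16 (the exception being without knockout 513). Without single libraries 4 to 5 of the 10 genes were called higher and 1 to 3 lower. The sign of Scd2 turned with the muscle score (-0.10) and without control 514 (-0.04), control 518 (-0.07) or knockout 515 (-0.11). Without single libraries it reached at most 0.246. Scd4 turned with the muscle score (0.484) and without control 514 (0.0686, lowest -0.778), and Hacd3 (0.00564) and Cers2 (0.0396) turned with library sizes alone. With library sizes alone 14 surrounding genes were higher and 17 lower, and of all genes 4077 were higher and 930 lower, with the median of all genes shifted by 0.199. By upper quartile scaling 2915 genes were higher and 1625 lower, with a shift of 0.103. With the muscle score 5 surrounding genes were higher, and of all genes 1356 were higher and 1726 lower. The cause of these differences was not tested. Without single libraries the log2 differences ranged from -0.0101 to 0.282 for Fads2/Fads1 and from -0.60 to 0.13 for Scd2/Scd1, both turning without control 518, and the other 6 ratios kept their direction. No p was computed for ratios with a library left out. With a pseudocount of 5 or with summed rows no adjusted p of a ratio (exact permutation test) fell under 0.05, as in the main setting. The smallest p this test allows is 0.0286 before adjustment over 8 ratios, so this says little about how stable the ratios are. No paired analysis was possible because the labels name no litters or pairs. Elovl4, at 14 to 23.5 counts in controls, and Elovl7, at 40.5 to 178.5, had the lowest mean CPM of the 10 genes in controls. The part of depth in their error was not tested, and the largest SE was that of Elovl3 (0.614).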
